A study of Arabidopsis thaliana with 9 samples.

Results

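AT5G10120 encodes a transcription factor of the EIN3-like family, and its transcript was followed here in dry seeds of 3 Arabidopsis thaliana genotypes. The gene was 1 of 22746 probe sets tested and was read by 1 probe set on each of 9 Affymetrix arrays. It was chosen by its measured difference between dog1-1 and NILDOG1, so its own levels are given as a description, with no test. By that difference it had rank 4 among the 13286 loci with a probe set of 1 gene. AT4G01610 followed in that order at 3.58 on the log2 scale, as the last of the 5 largest, and AT1G29980 lay just outside them at 3.29.

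The dog1-1 group was the delay of germination 1 mutant, in which the labels give DOG1 expression as absent. The NILDOG1 group was a near isogenic line with the Cvi allele of DOG1, labelled with strong DOG1 expression, and other Cvi sequence that the line may carry is not separated from that allele. The Ler group was the Landsberg erecta wild type, labelled with low DOG1 expression. All 3 genotypes were labelled with the Landsberg erecta background. Each had 3 biological replicates, each replicate pooled the seeds of 8 plants, and all seeds were freshly harvested, mature and dry. DOG1 had 0 probe sets under its name in the annotation used, and its transcript level was not analysed here. The labels of its expression could therefore not be checked. A gene is called measured here where that annotation gave it a probe set of 1 gene. The annotation did not list 8730 probe sets, so genes not measured in this sense may still be on the array.

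Ethylene is a gaseous plant hormone. Receptors in the endoplasmic reticulum keep the kinase CTR1 active while ethylene is absent, and CTR1 holds the membrane protein EIN2 in check. Ethylene releases EIN2, which lets the transcription factor EIN3 and its closest relatives accumulate in the nucleus and switch on ERF factors and further targets. The F-box proteins EBF1 and EBF2 mark EIN3 for breakdown, and ETP1 and ETP2 do the same for EIN2. In Arabidopsis seeds ethylene promotes germination and counteracts abscisic acid, whereas DOG1 promotes dormancy. Other EIN3-like proteins act outside the ethylene response, such as EIL3 (SLIM1), which controls the response to sulfur shortage.

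The arrays of a genotype correlated with each other at 0.992 to 0.996, and their medians lay between 3.51 and 3.59 on the log2 scale. Array number limits the precision of every value. The TrpnX control probe sets, whose transcript is not present in seeds, had 1.82 to 2.56, and a group mean up to 2.56 was taken as background. Of 16 listed seed markers 5 were measured (storage protein, oil body and late embryogenesis genes), among them AT3G15670, a late embryogenesis gene (13.89 over all arrays), and the oleosin family gene AT3G18570 (10.07). AT1G03890, a cruciferin-like storage protein gene, rose in dog1-1 (0.63 against NILDOG1 and 0.69 against Ler, limma, adjusted p = 0.00133 and 0.000648), AT3G18570 fell (-0.53 and -0.43, adjusted p = 0.00849 and 0.0255), and the 3 others did not pass. Over the whole array 12.5% of probe sets passed against NILDOG1 and 13.6% against Ler, so these few calls do not set the seed markers apart. The mean log2 signal of the 5 per array was 12.41 to 12.56 in dog1-1, 12.45 to 12.52 in NILDOG1 and 12.43 to 12.45 in Ler. On dog1-1 replicate 3 (8.04) and Ler replicate 1 (7.33) the control for 25S ribosomal RNA was below the 9.86 to 11.88 of the other arrays.

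AT5G10120 was high in dog1-1 and low in both other genotypes. Its log2 signal was 9.19, 9.35 and 9.54 on the dog1-1 arrays, 5.62, 5.63 and 5.26 on the NILDOG1 arrays and 5.85, 5.88 and 5.81 on the Ler arrays. The 3 dog1-1 arrays stood above all others with no overlap. The means were 9.36 ± 0.175 in dog1-1, 5.50 ± 0.208 in NILDOG1 and 5.85 ± 0.0354 in Ler (SD, n = 3 each).

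These means put dog1-1 above NILDOG1 by 3.85 on the log2 scale, 14.5-fold, and above Ler by 3.51, 11.4-fold. Over all 22746 probe sets, 6 had a larger rise than AT5G10120 in dog1-1 over NILDOG1 and 9 in dog1-1 over Ler. The gap between dog1-1 and either other genotype was many times the SD of any group. Both comparisons share the dog1-1 arrays, so they are not separate evidence. In bulk seed RNA, more cells that hold the transcript and more transcript per cell cannot be told apart.

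The order below dog1-1 was Ler and then NILDOG1. NILDOG1 differed from Ler by -0.34 on the log2 scale, 1.27-fold lower, and the arrays of both did not overlap. This exceeded the SD of either group but became -0.22 without NILDOG1 replicate 3, the lowest array of all. The gene was chosen for its rise over NILDOG1, which favours low NILDOG1 values, so this difference is a description only. Of all probe sets, 3.76% differed by more than this between NILDOG1 and Ler, in either direction. Both genotypes were well above background, with the NILDOG1 mean 2.95 above the highest TrpnX signal.

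Some array properties moved with the genotype beside AT5G10120. The hybridization controls had 8.81 to 9.14 on the dog1-1 arrays, 9.12 to 9.27 on the NILDOG1 arrays and 9.19 to 9.57 on the Ler arrays. Centring each array on them left AT5G10120 higher in dog1-1, by 4.04 against NILDOG1 and by 3.86 against Ler, and its NILDOG1 to Ler difference became -0.17. Between the 3′ and 5′ probe sets of the control transcripts, dog1-1 stood apart for 2 of 6 control pairs, in opposite directions. The GAPDH difference was 1.40 to 1.75 in dog1-1, 1.23 to 1.36 in NILDOG1 and 0.83 to 1.11 in Ler. The second ubiquitin pair had -0.54 to -0.27 in dog1-1, -0.22 to -0.14 in NILDOG1 and -0.25 to -0.16 in Ler. An actin pair had the largest difference in every genotype and overlapped between them. It had 4.21 to 4.90 in dog1-1, 4.16 to 4.43 in NILDOG1 and 4.32 to 4.78 in Ler. The part of these properties in the AT5G10120 levels was not tested. Without dog1-1 replicate 3 and Ler replicate 1, the arrays low in 25S ribosomal RNA, AT5G10120 was higher in dog1-1 by 3.77 against NILDOG1 and by 3.42 against Ler.

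Markers of other tissues were set beside AT5G10120 as well. Of 7 green tissue markers 3 were measured, with a mean log2 signal per array of 6.73 to 6.91 in dog1-1, 6.32 to 6.53 in NILDOG1 and 6.29 to 6.51 in Ler. Of these, RCA (Rubisco activase) and LHCB4.2 rose and LHCB4.1 fell in dog1-1 against both NILDOG1 and Ler (limma). In that order, the RCA differences were 1.47 and 1.52 (adjusted p = 1.11e-05 and 8.91e-06). Those of LHCB4.2 were 0.67 and 0.50 (adjusted p = 0.00798 and 0.0409). For LHCB4.1 they were -0.82 and -0.62 (adjusted p = 0.00930 and 0.0413). Over the whole array 12.5% and 13.6% of probe sets passed in these comparisons. The 2 measured seed coat markers of 4 were DFR and BAN. Their mean log2 signal per array was 2.63 to 2.83 in dog1-1, 2.69 to 2.90 in NILDOG1 and 2.72 to 2.92 in Ler. The 2 measured endosperm markers of 3, IKU2 and AGL62, were low too, with AGL62 at background in every genotype. IKU2 averaged 3.61 in dog1-1, 3.80 in NILDOG1 and 4.03 in Ler, and it fell in dog1-1 against Ler (-0.42, limma, adjusted p = 0.0153). Centred on the hybridization controls, none of these falls passed: LHCB4.1 had -0.64 against NILDOG1 and -0.26 against Ler (adjusted p = 0.0613 and 0.318), IKU2 had -0.06 against Ler (adjusted p = 0.738), and the seed marker AT3G18570 had -0.34 and -0.08 (adjusted p = 0.283 and 0.703). That centring moved the dog1-1 differences of all probe sets upward by the same amount within a comparison. Falls therefore had to shrink and rises had to grow, so this is no separate evidence. The rises passed on that scale (limma). Against NILDOG1 and Ler RCA had 1.66 and 1.87 (adjusted p = 1.40e-07 and 1.55e-08) and LHCB4.2 had 0.86 and 0.85 (adjusted p = 0.000487 and 0.000414). The seed marker AT1G03890 had 0.81 and 1.04 (adjusted p = 0.00308 and 0.000149). The part of these markers in the AT5G10120 levels was not tested.

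**Figure D1:**
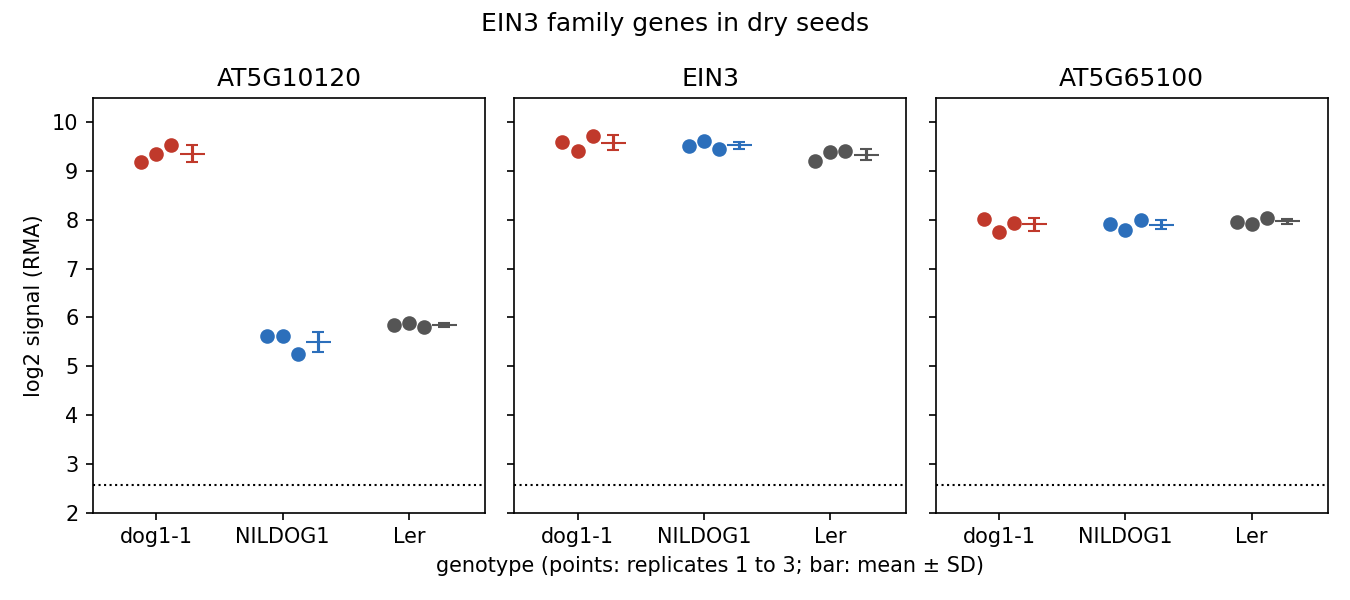
Log2 signal of AT5G10120, EIN3 and AT5G65100 in dog1-1, NILDOG1 and Ler seeds. Points are the 3 replicates, the bar beside them is the mean ± SD, and the dotted line is the highest TrpnX background signal (2.56). AT5G10120 lies between 9.19 and 9.54 in dog1-1 and between 5.26 and 5.88 in the others, while the arrays of each other gene stay within a narrow band.

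Neither of the 2 other measured members of the EIN3 family passed the test in any comparison. EIN3 (AT3G20770), the main transcription factor of the ethylene response, had 9.60, 9.41 and 9.72 in dog1-1, 9.52, 9.61 and 9.46 in NILDOG1 and 9.21, 9.40 and 9.41 in Ler. The EIN3 arrays of dog1-1 overlapped those of both other genotypes, and those of NILDOG1 lay just above those of Ler. The EIN3 difference of dog1-1 was 0.05 against NILDOG1 (95% interval -0.19 to 0.28) and 0.24 against Ler (0.00 to 0.47), and neither passed limma's test at an adjusted p of 0.05 (adjusted p = 0.865 and 0.190). With the hybridization controls as the centre of each array, which put the median change of all probe sets between dog1-1 and Ler at 0.31, the EIN3 difference from Ler became 0.59 and passed (adjusted p = 0.0256; range over all alternatives 0.0256 to 0.724).

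AT5G65100, which the gene list places in the EIN3 family, had 8.01, 7.76 and 7.94 in dog1-1, 7.92, 7.80 and 7.99 in NILDOG1 and 7.95, 7.92 and 8.03 in Ler. Its arrays overlapped in every pair of genotypes. The differences of AT5G65100 were 0.00 for dog1-1 against NILDOG1 (95% interval -0.21 to 0.22), -0.06 for dog1-1 against Ler (-0.28 to 0.15) and -0.07 for NILDOG1 against Ler (-0.28 to 0.15). Changes of AT5G65100 within these intervals were not detectable with 3 arrays a genotype. The 3 other listed members were not analysed here.

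The ethylene pathway as a whole was thinly covered by the annotation used. Of 83 other listed genes 9 had a probe set of 1 gene there, and none of the 29 ERF and EDF factors did. In dog1-1 against Ler 0 of the 9 rose and 1 fell with limma, with a median log2 change of -0.08 against -0.04 over all probe sets. In that comparison 13.6% of the whole array passed (8.33% higher and 5.28% lower). Without adjustment 3 of the 9 had a p under 0.05. In dog1-1 against NILDOG1 0 rose and 2 fell, with a median of 0.05 against -0.04, where 12.5% of the whole array passed (7.52% upward and 4.94% downward). In NILDOG1 against Ler 0 rose and 0 fell with limma, where 0.545% of the whole array passed (0.321% upward and 0.224% downward). There 2 of the 9 had an unadjusted p under 0.05. The share of the whole array at an unadjusted p was not computed, so the unadjusted counts cannot be set against it. The counts of 0, 1 and 2 past the adjusted threshold among 9 genes are too few to set the pathway apart from the whole array.

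**Figure D2:**
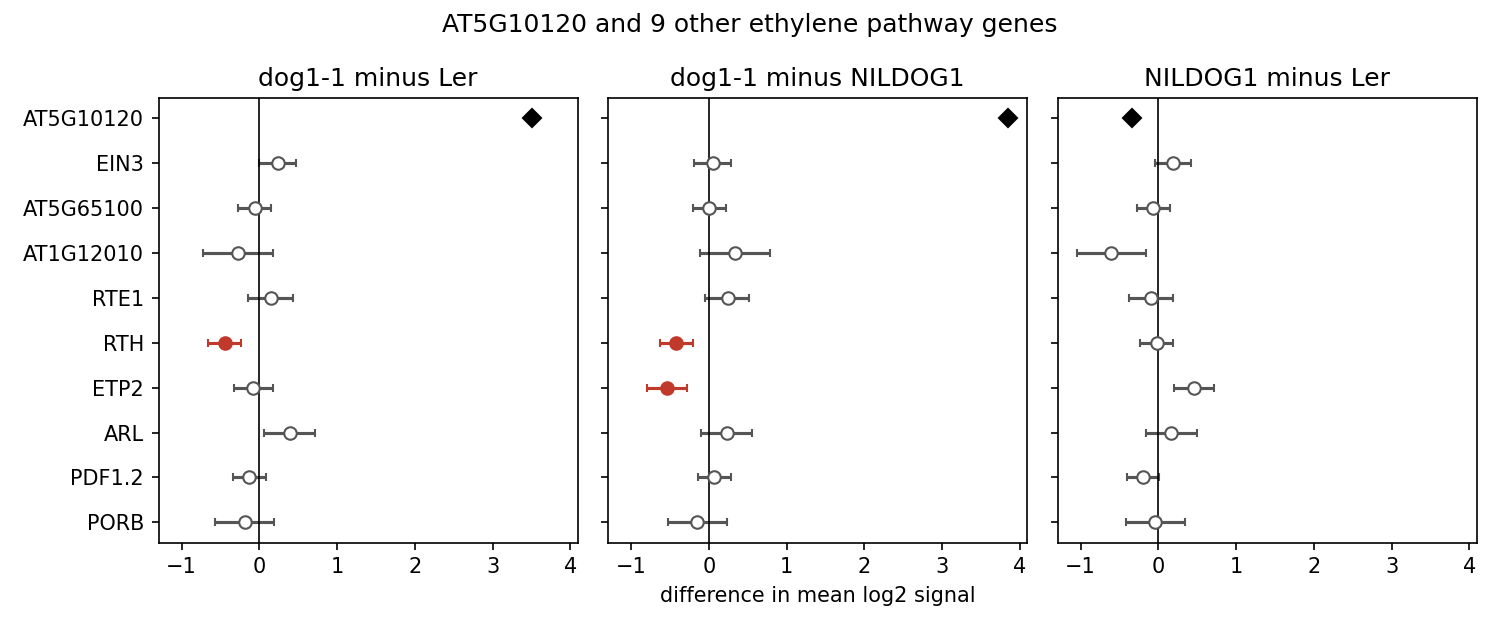
Difference in mean log2 signal between genotypes for AT5G10120 (black diamond, no test) and 9 other ethylene pathway genes (circles with limma 95% intervals, filled where the adjusted p is under 0.05). RTH lies below 0 in dog1-1 against both other genotypes and ETP2 in dog1-1 against NILDOG1, each within 1 unit, while AT5G10120 lies at 3.51 and 3.85.

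For ethylene synthesis 1 of 20 listed genes was measured. AT1G12010, listed as an ACC oxidase of the last step of synthesis, had 3.24, 3.92 and 3.68 in dog1-1, 3.41, 3.07 and 3.37 in NILDOG1 and 4.14, 4.11 and 3.43 in Ler. The NILDOG1 arrays lay below the Ler arrays, narrowly at the nearest pair, and the dog1-1 arrays overlapped both. The AT1G12010 difference of NILDOG1 from Ler was -0.61 (SE 0.205) and did not pass (limma, adjusted p = 0.532).

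Of 8 genes of the receptors and their helpers 2 were measured. RTE1 (AT2G26070) promotes signalling by the receptor ETR1, and RTH (AT3G51040) is its homolog and partner. RTH had 6.96, 7.08 and 6.91 in dog1-1, 7.34, 7.31 and 7.55 in NILDOG1 and 7.46, 7.46 and 7.36 in Ler. All dog1-1 arrays lay below all others for RTH. RTH fell by 0.44 in dog1-1 against Ler (SE 0.0988, limma, adjusted p = 0.00987) and by 0.42 against NILDOG1 (SE 0.0988, adjusted p = 0.0143). Centred on the hybridization controls the RTH differences were -0.09 and -0.23 and did not pass (adjusted p = 0.644 and 0.501, the highest over all alternatives, where the lowest were 0.00770 and 0.0120). Without dog1-1 replicate 3 and Ler replicate 1 together they were -0.39 and -0.38 and did not pass either (adjusted p = 0.0907 and 0.0665). The difference from NILDOG1 also missed the threshold without dog1-1 replicate 3 (-0.38, adjusted p = 0.0661) or NILDOG1 replicate 3 (-0.34, adjusted p = 0.0619). RTE1 had 6.56 to 7.01 in dog1-1, 6.40 to 6.72 in NILDOG1 and 6.52 to 6.68 in Ler, and its arrays overlapped in every pair. Its dog1-1 difference from Ler of 0.15 did not pass (limma, adjusted p = 0.540), but became 0.50 with the hybridization controls as centre and passed (adjusted p = 0.0432, range 0.0432 to 0.956).

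Of 7 signalling genes only ETP2 (AT3G18910), the F-box gene whose product targets EIN2, was measured. ETP2 had 3.85, 4.01 and 3.81 in dog1-1, 4.39, 4.23 and 4.66 in NILDOG1 and 3.89, 4.01 and 4.01 in Ler. The NILDOG1 arrays of ETP2 lay above all others, and those of dog1-1 and Ler overlapped. ETP2 fell by 0.54 in dog1-1 against NILDOG1 (SE 0.117, limma, adjusted p = 0.00895), which became -0.35 on the hybridization control scale and did not pass (adjusted p = 0.271, range 0.00464 to 0.271). Against Ler, the ETP2 difference was -0.08 in dog1-1 and 0.46 in NILDOG1, and neither passed (adjusted p = 0.736 and 0.216).

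Downstream genes showed no change past the threshold. Of 14 listed response targets 3 were measured: ARL, a growth gene related to ARGOS, PDF1.2, a defensin induced by ethylene and jasmonate, and PORB, an enzyme of chlorophyll synthesis. ARL had 8.11 to 8.57 in dog1-1, 7.99 to 8.36 in NILDOG1 and 7.72 to 8.10 in Ler. Its dog1-1 difference from Ler of 0.39 did not pass (limma, adjusted p = 0.121) but became 0.74 and passed on the hybridization control scale (adjusted p = 0.0105, range 0.0105 to 0.478). PDF1.2 and PORB lay between 2.80 and 3.68 on every array, close to background. Of 13 genes of the sulfur response 1 was measured, BGLU28, a beta glucosidase gene, with 2.40 to 2.53 in dog1-1, 2.58 to 2.72 in NILDOG1 and 2.49 to 2.86 in Ler. BGLU28 was at background in dog1-1, so these data say little about it.

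AT5G10120 lies on chromosome 5, as does DOG1. Within 20 loci on each side 7 other genes were measured. In dog1-1 against NILDOG1 0 of the 7 rose and 1 fell with limma, and the counts against Ler were the same, with unadjusted p under 0.05 for 2 and 1 of them. Over the whole array 12.5% and 13.6% passed in these comparisons (7.52% and 8.33% upward), so counts of 0 and 1 among 7 genes do not set the neighbours apart. In NILDOG1 against Ler 0 of the 7 passed with limma, where 0.545% of the whole array passed, and 0 had an unadjusted p under 0.05. For the unadjusted counts no share of the whole array was computed. The nearest measured gene, AT5G10130, the next locus, had 3.34, 3.45 and 3.61 in dog1-1, 2.82, 3.46 and 3.14 in NILDOG1 and 3.31, 3.03 and 3.28 in Ler. The AT5G10130 differences of 0.33 and 0.26 in dog1-1 did not pass (adjusted p = 0.220 against NILDOG1 and 0.326 against Ler). AT5G10070, 7 loci before AT5G10120, had 8.48, 8.33 and 8.47 in dog1-1, 8.88, 8.98 and 9.26 in NILDOG1 and 9.46, 9.07 and 9.01 in Ler. It moved the other way from AT5G10120: AT5G10070 fell by 0.61 in dog1-1 against NILDOG1 (SE 0.136, limma, adjusted p = 0.00974) and by 0.75 against Ler (SE 0.136, adjusted p = 0.00243). With the hybridization controls as the centre, these became -0.43 and -0.40 and did not pass (adjusted p = 0.113 and 0.0784, the highest over all alternatives, where the lowest were 0.00320 and 0.000976). The same centring brought AT5G10130 (0.61), AT5G10160 (0.49) and AT5G10190 (0.59) past the threshold in dog1-1 against Ler (adjusted p = 0.0236, 0.0341 and 0.0219, each the lowest over its alternatives, where the highest were 0.626, 0.791 and 0.671), where the median change over the whole array was 0.31 after the centring and -0.04 before it. How much of the whole array passed after that centring was not computed. AT5G10160 and AT5G10190, 5 and 8 loci after AT5G10120, had differences from Ler of 0.14 and 0.24 before that centring, and neither passed (limma, adjusted p = 0.464 and 0.333). AT5G10040, 10 loci before, was at background in all genotypes (means of 2.31 in dog1-1, 2.43 in NILDOG1 and 2.47 in Ler). AT5G09995, 16 loci before, averaged 3.09 in dog1-1, 3.10 in NILDOG1 and 3.21 in Ler, and did not pass in any comparison.

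In gene order, the nearest locus before AT5G10120 past limma's threshold in NILDOG1 against Ler was TRM28 (AT5G03670), with 279 measured genes between them and a difference of -1.12 (adjusted p = 0.00143). The nearest one after it was AT5G20950, with 542 measured genes between them and a difference of 1.20 (adjusted p = 0.0399). On chromosome 5, 15 of 426 measured genes before AT5G10120 (3.52%) and 41 of 2555 after it (1.60%) passed in that comparison, against 0.545% of the whole array. The chromosome 5 shares count 1 probe set for each named gene, and the whole array share counts all 22746 probe sets, named or not. The share over named genes of all chromosomes was not computed. In dog1-1 against Ler AT5G20950 also rose, by 1.71 (limma, adjusted p = 0.000277), and TRM28 had a difference of 0.15 that did not pass (adjusted p = 0.533). The labels do not give the parent line of dog1-1, so sequence other than DOG1 that differs between dog1-1 and Ler is not separated from the mutation.

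**Figure D3:**
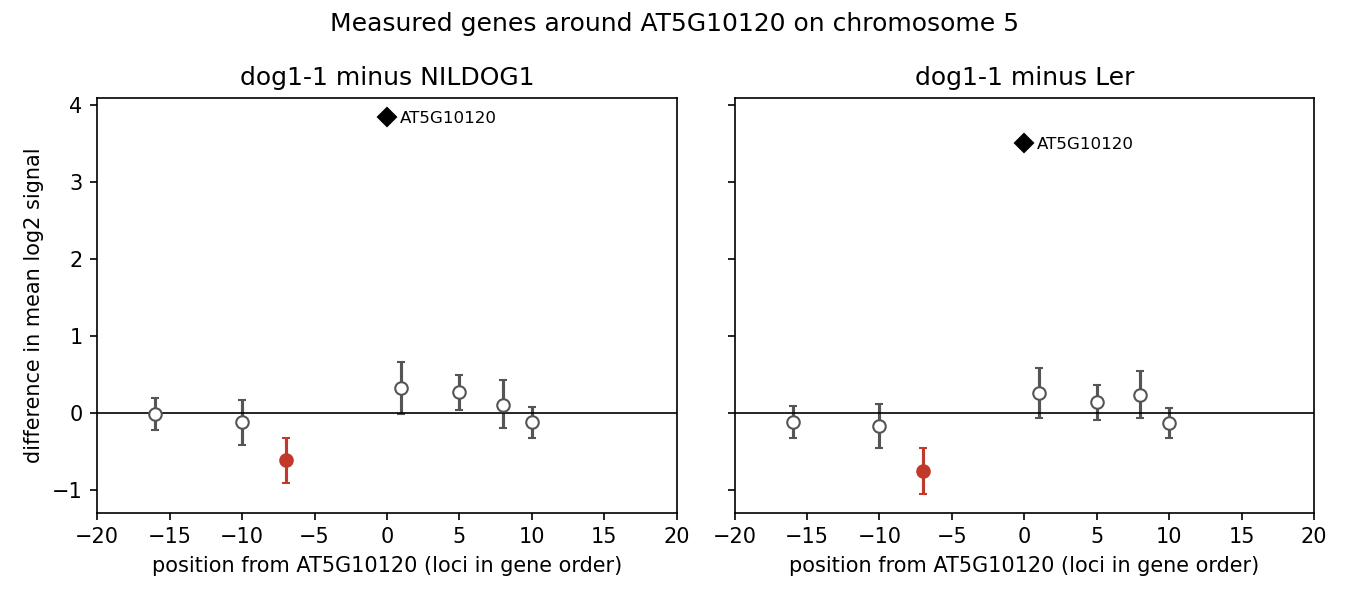
Difference in mean log2 signal of dog1-1 from NILDOG1 and from Ler for the measured genes within 20 loci of AT5G10120, by their place in gene order on chromosome 5. The diamond is AT5G10120 (no test), circles are the other genes with limma 95% intervals, and filled circles have an adjusted p under 0.05. The 7 neighbours lie between -0.75 and 0.33.

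The genes with the array profile closest to AT5G10120 were found by the root mean square difference over the 9 arrays, each gene's log2 signals first set relative to its own mean. They were chosen on these values and are given with no test. The closest of the 13435 other probe sets with 1 gene was AT4G01610, a cathepsin-like cysteine protease gene, at a distance of 0.213, against a median distance of 1.77. AT4G01610 had 9.39, 10.24 and 10.20 in dog1-1, 6.35, 6.57 and 6.18 in NILDOG1 and 6.44, 6.67 and 6.46 in Ler. AT5G14450, a lipase family gene, came second at 0.308, with 9.34, 10.28 and 10.45 in dog1-1, 5.89, 6.21 and 5.68 in NILDOG1 and 6.18, 5.87 and 6.04 in Ler. Both were high on the 3 dog1-1 arrays and overlapped between NILDOG1 and Ler, unlike AT5G10120.

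AT5G59080 (0.310), AT1G54410 (0.328), AT5G62350 (0.364) and AT1G29980 (0.370) followed, and AT4G38410 was next at 0.371. AT1G54410 is HIRD11, a small dehydrin, one of the hydrophilic proteins that protect cells during drying. AT1G54410 had 7.69, 8.22 and 8.18 in dog1-1, 3.38, 3.72 and 3.71 in NILDOG1 and 4.22, 4.15 and 3.76 in Ler. AT5G59080 had 5.94, 6.25 and 6.52 in dog1-1, 2.96, 3.12 and 2.82 in NILDOG1 and 3.51, 3.27 and 3.38 in Ler. For AT1G54410 and AT5G59080 NILDOG1 lay below Ler with no overlap of the arrays, as for AT5G10120, while for 4 of the 6 these arrays overlapped. The share of all probe sets without such overlap was not computed. In all 6 closest genes dog1-1 replicate 1 was the lowest of the dog1-1 arrays, as it was for AT5G10120, and the NILDOG1 mean was below the Ler mean. The choice by closeness on these same arrays favours such a shared order, so it is no separate evidence. Counting probe sets without a single gene, 16 lay within the distance of the sixth.

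**Figure D4:**
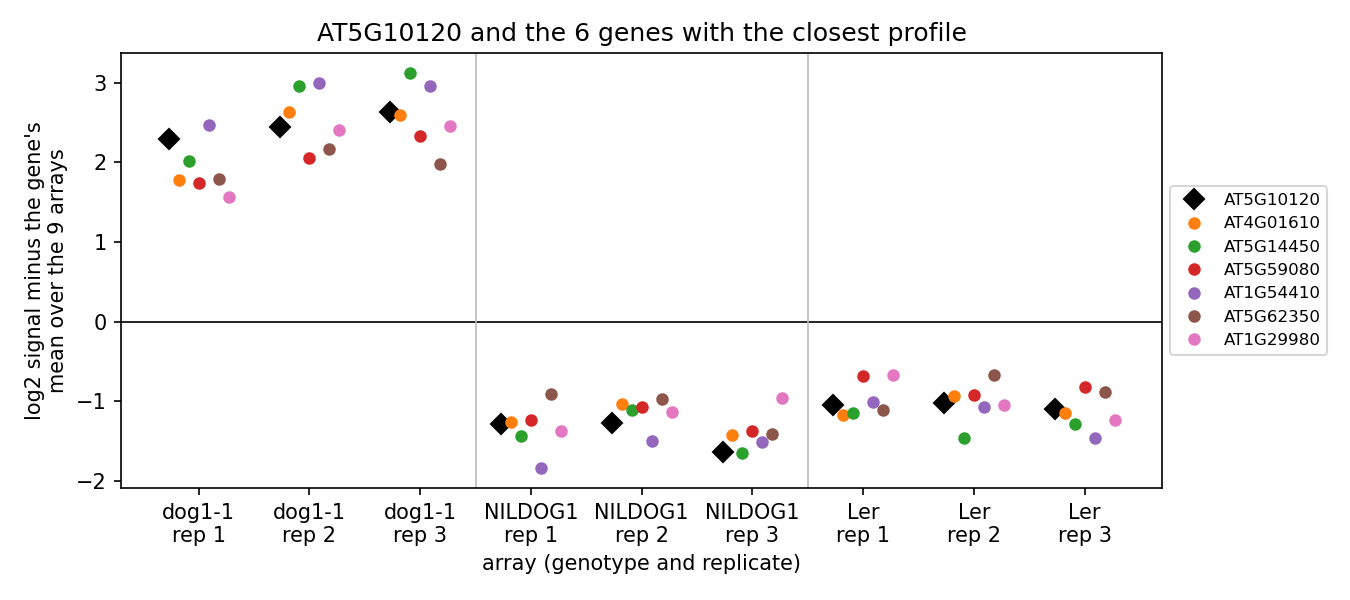
Log2 signal of AT5G10120 (black diamonds) and the 6 genes with the closest profile (circles) on each array, relative to the gene's mean over the 9 arrays. All 7 lie above their mean on the 3 dog1-1 arrays and below it on the NILDOG1 and Ler arrays.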

How the data were processed

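The authors normalized the arrays with RMA, per the submitters' processing notes, and deposited a log2 signal for each probe set. Its version is not given in the sources used here, and the log base was read from the values. RMA makes the arrays' distributions alike, so a shift of all transcripts would not be visible. Of 22810 probe sets 64 Affymetrix controls were left out. Genes came from the platform annotation (13513 probe sets with 1 gene, 503 with several, 8730 not listed), matched to a gene table of the TAIR10.1 assembly for symbols and gene order (13436 matched). The array build is not named, so no coordinates are printed, and no sequence is shown.

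Genotypes were compared with limma 3.58.1 in R 4.3.3 (lmFit and eBayes on all 9 arrays, 6 residual degrees of freedom, genotype as the only term), with Benjamini-Hochberg adjustment over 22746 probe sets and a threshold of 0.05. The fit was checked on simulated data. The gene chosen, the gene lists and the rules were set with earlier results of these data known. Named genes were AT5G10120, every measured member of the family, synthesis, receptor and signalling lists, the largest calls or the brightest gene of the other lists (the other measured members, which complete the counts, were added after their values were seen), the 3 nearest measured neighbours on each side with those called within 20 loci, and the 6 closest profiles. Annotation text naming ethylene or EIN3 added no gene to the lists. Where several probe sets named 1 gene, the brightest stood for it. Replicates are biological per the labels.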

Additional observations from a re-analysis of the deposited data

How the results depend on the processing

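The alternatives left out each array in turn, used the replicate number as a block, centred the arrays on 18 hybridization controls, quantile normalized them, left out dim probe sets, used a trended variance prior, fitted 2 genotypes only, and, chosen after seeing the data, left out Ler replicate 1 and dog1-1 replicate 3 together. AT5G10120 kept its direction under all those run on it. Leaving out single arrays gave 3.73 to 3.94 in dog1-1 against NILDOG1, 3.42 to 3.60 in dog1-1 against Ler and -0.40 to -0.22 in NILDOG1 against Ler. With the replicate block the values were 3.85, 3.51 and -0.34. A block cannot change these differences where every genotype has each replicate number, so this was fixed in advance. The replicate numbers are not tied to a growth block in the labels. After removal of genotype means, arrays of different genotypes with the same number correlated at -0.231 to 0.0299 (0 of 9 over 0.1). Those with other numbers correlated at -0.151 to 0.275 (6 of 18 over 0.1), so some arrays shared a pattern that the replicate number does not follow. With the replicate block 1 ethylene gene passed in dog1-1 against Ler and 2 in dog1-1 against NILDOG1. Centring on the hybridization controls moved AT5G10120 to 4.04, 3.86 and -0.17, and the median of all probe sets to 0.15, 0.31 and 0.17. It also turned the ethylene calls to 3 higher and 0 lower in dog1-1 against Ler and to 0 in dog1-1 against NILDOG1, and those among the neighbours to 3 higher and to 0. The share of the whole array past the threshold after this centring was not computed, so these counts cannot be set against it. The cause was not tested. Ethylene calls in dog1-1 against NILDOG1 ranged from 1 to 2 without single arrays (1 without dog1-1 replicate 3 or NILDOG1 replicate 3, where RTH no longer passed), and without both arrays low in 25S ribosomal RNA they were 0 in dog1-1 against Ler and 1 in dog1-1 against NILDOG1. Of 810 values of single genes under an alternative 47 changed sign, and 0 of these were past the threshold in either fit. Centring on the hybridization controls gave 25 of the sign changes. Many of the 810 could not change sign, since several alternatives leave a difference of means as it was. With distances over genotype means, 5 of the 6 closest genes were shared and AT4G38410 replaced 1 of them.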
